A study of Mus musculus with 12 samples.

Results

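The genes of ISG15 conjugation and the interferon-induced PARPs were followed here in activated mouse macrophages. The 10 genes were picked by name from 2 linked systems, with earlier results of these data known, and the rule itself used no measured value. They are the ubiquitin-like modifier Isg15, its activating enzyme Uba7 (E1), its conjugating enzyme Ube2l6 (E2), its ligase Herc6 (E3) and its protease Usp18. The others are Parp9, Parp10, Parp12 and Parp14 of the PARP (ADP-ribosyltransferase) family and the ubiquitin ligase Dtx3l. All 10 were among the 22243 genes of the deposited table, and all 10 were among the 8780 genes tested, those whose TPM averaged 1 or more over all libraries (TPM is a transcript level corrected for transcript length and scaled to the same total in each library).

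RNA was sequenced from bone marrow-derived macrophages (BM-Mɸs) of 12 mice on a C57Bl/6 background, 1 mouse of each genotype from each of 6 litters. Mice labelled LysMCre/ErbB4-floxxed (ErbB4myeKO) carried floxed Erbb4, the gene of a receptor tyrosine kinase that binds neuregulins, and a Cre recombinase expressed from the lysozyme gene Lyz2, which is active in macrophages and other myeloid cells. Their littermates labelled ErbB4-floxxed (ErbB4FF) had the floxed gene without Cre. Every culture was grown in medium conditioned by CMG14-12 cells as a source of M-CSF and received 100 U/mL IFN-γ for 16 h, then 100 ng/mL LPS for 6 h (so-called M1 activation). No unstimulated culture was analysed here, so induction of these genes was not measured. Age and sex of the mice are not on the labels. The batch letter on the labels changed with the litter, so batch and litter cannot be told apart, whereas both genotypes were in each batch.

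Erbb4 lay between 0.280 and 0.852 TPM in the libraries labelled ErbB4myeKO and between 0.372 and 0.716 TPM in those labelled ErbB4FF. It was the higher of the pair in the library labelled ErbB4myeKO in 4 of 6 litters (exact permutation p = 0.250), and samples are named by their label throughout. These values cover the whole transcript at a level below 1 TPM and not the floxed exon alone, so they cannot show whether that exon was lost. Lyz2, the host gene of Cre, had log2 ratios (ErbB4myeKO over ErbB4FF) between -1.20 and -0.81 in litters 1 to 5 but 1.43 in litter 6 (exact permutation p = 0.219), so litter 6 went against the other litters in this gene. This gene carries the Cre, so its ratio bears on the labels of litter 6, and whether those labels are right was not tested. All ratios below take the labels as given. All 8 macrophage markers averaged 1 TPM or more. Of the markers of other cells, 3 of 9 for neutrophils and 2 of 7 for dendritic cells did so, and 0 of 8 for lymphocytes and 0 of 6 for erythroid cells. The neutrophil markers summed to 39.0 to 360 TPM in the libraries labelled ErbB4myeKO and 37.8 to 169 TPM in those labelled ErbB4FF, and Ly6g, Mpo and Elane were below 1 TPM on average. Both libraries of litter 5 stood apart from the other 10 in the levels of short and long transcripts. In such bulk libraries, fewer cells of a type and less RNA per cell cannot be told apart.

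ISG15 is a small protein that is attached to other proteins much as ubiquitin is, by an E1, E2 and E3 cascade, and also acts outside the cell. USP18 removes it again and separately restrains signalling from the type I interferon receptor. PARP9 and DTX3L form a complex that couples ADP-ribosylation to ubiquitin ligation, and PARP10, PARP12 and PARP14 attach single ADP-ribose units to proteins. Genes of both systems are classical targets of interferons and are transcribed strongly in macrophages that meet interferon or LPS. Type I interferon acts on promoters mainly through the interferon-stimulated response element, whose core is GAAA, any 2 bases and GAAA again, and IFN-γ through the gamma-activated site, TTCNNNGAA.

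The promoter sequences of 3 of the genes are shown because they differ in the first of these elements. They are the 250 bases that end just before the RefSeq start site, on the strand of the gene (RefSeq, GRCm38.p6), with each match to that core in capitals. For Isg15 the window is chr4:156200819-156201068 on the minus strand, for Ube2l6 chr2:84798578-84798827 on the plus strand, and for Herc6 chr6:57580742-57580991 on the plus strand.
Isg15: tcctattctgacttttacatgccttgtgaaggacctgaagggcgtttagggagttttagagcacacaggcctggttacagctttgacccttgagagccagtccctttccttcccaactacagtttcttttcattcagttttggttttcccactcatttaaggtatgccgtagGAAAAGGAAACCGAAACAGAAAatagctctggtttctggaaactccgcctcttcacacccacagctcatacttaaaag
Ube2l6: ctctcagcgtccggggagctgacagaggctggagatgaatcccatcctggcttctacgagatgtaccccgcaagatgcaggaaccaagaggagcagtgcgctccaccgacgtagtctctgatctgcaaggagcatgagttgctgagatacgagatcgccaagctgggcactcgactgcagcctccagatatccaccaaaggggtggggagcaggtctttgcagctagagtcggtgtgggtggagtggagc
Herc6: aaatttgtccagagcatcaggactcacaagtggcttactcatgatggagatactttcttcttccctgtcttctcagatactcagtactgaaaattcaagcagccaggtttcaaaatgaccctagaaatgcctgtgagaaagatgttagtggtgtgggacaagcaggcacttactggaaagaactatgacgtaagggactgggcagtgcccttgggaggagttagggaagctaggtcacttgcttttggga
In the Isg15 promoter, 3 matches overlapped each other, at positions -78 to -69, -72 to -63 and -66 to -57 from the start site. Windows of 300 bases, of which 250 lie before and 50 after the start, were found for 6 of the 10 genes (Isg15, Uba7, Ube2l6, Herc6, Dtx3l and Parp12), and both motifs were searched on both strands. Of these 6, Isg15 was the 1 with the core of the interferon-stimulated response element, which 3.44% of all 32851 promoter windows held. None of the 6 held the gamma-activated site TTCNNNGAA, which 8.30% of all windows held. Among other type I interferon targets, 14 of 29 windows held the core GAAA, 2 bases, GAAA, and among IFN-γ targets 8 of 21 did. A match is a description of the letters in this window and says nothing of binding. No promoter is shown for Usp18, Parp9, Parp14 and Parp10.

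The levels of the 10 genes spanned about 2 orders of magnitude. In the libraries labelled ErbB4FF, the median was 2875 TPM for Isg15, 631 for Usp18, 300.0 for Parp14, 233 for Ube2l6, 176 for Parp12, 114 for Herc6, 103 for Dtx3l, 59.5 for Parp10, 23.9 for Parp9 and 23.4 for Uba7. Isg15 ranked 36 and Usp18 206 among the 8780 genes by mean TPM. The modifier was thus listed far above the enzymes that attach it, and the activating enzyme Uba7 had the lowest median of the 10. These levels cover only the principal transcripts that the authors deposited, not whole genes. Of their 31-base stretches, 100% for Uba7, 83.9% for Parp9, 63.7% for Ube2l6, 41.7% for Dtx3l and 0% for Isg15 also occur in other transcripts of the same gene. The part of this in the order and gaps of the levels was not tested. Isg15 exceeded Usp18 in all 12 libraries, by 3.46 to 7.12 times (median 4.20). Ube2l6 exceeded Uba7 by 5.79 to 102 times (median 11.4), with the widest gaps of 61.2 and 102 times in both libraries of litter 5. The ranges over the libraries labelled ErbB4FF overlapped for Parp14 and Ube2l6, Ube2l6 and Parp12, Herc6 and Dtx3l, Dtx3l and Parp10, and Parp9 and Uba7, so these neighbours in the order were not separated by their spread over mice. Across all 12 libraries Ube2l6 was nevertheless above Parp12, and Dtx3l above Parp10, in every library.

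**Figure D1:**
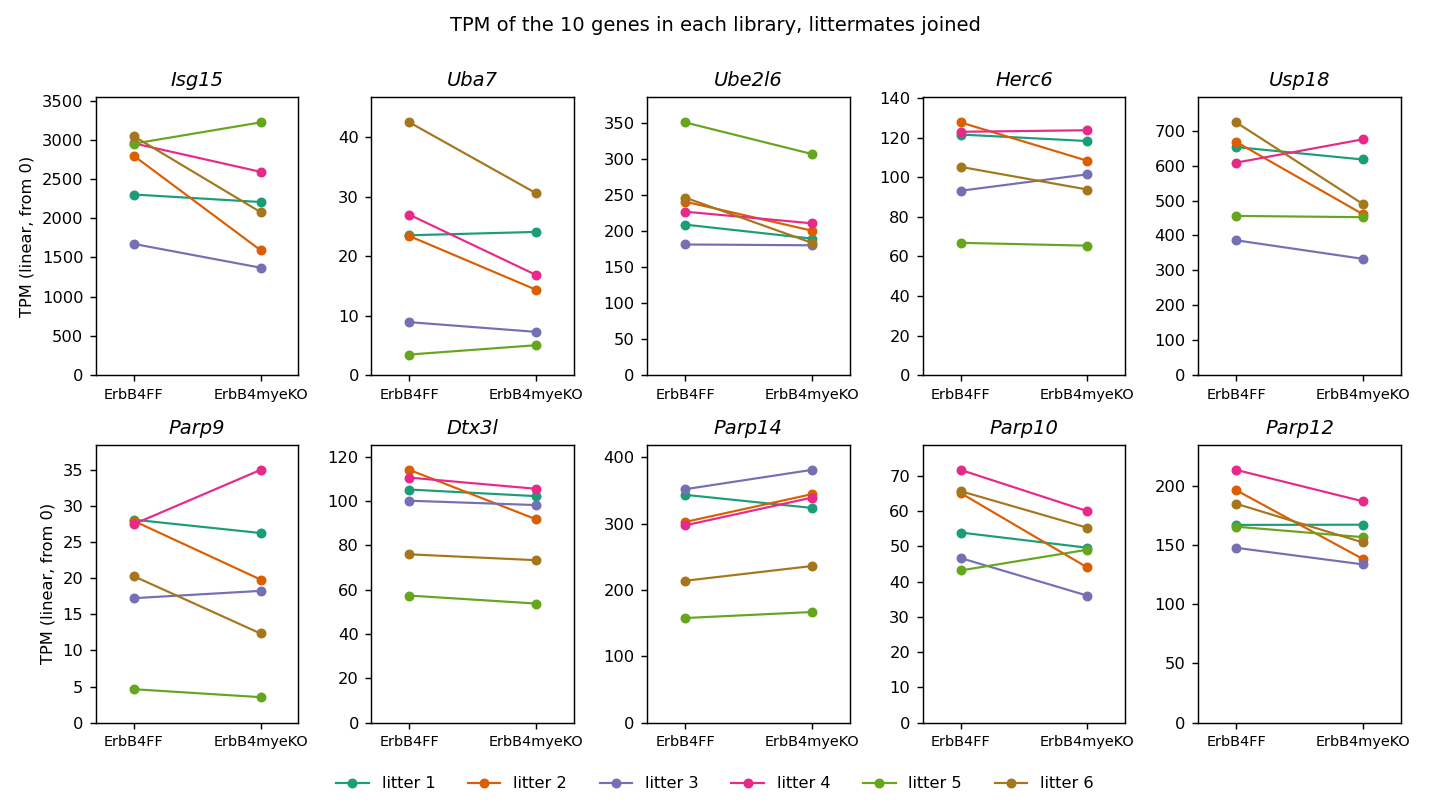
Level of each of the 10 genes (TPM, linear axis from 0) in the libraries labelled ErbB4FF and ErbB4myeKO, with 1 point per library and a line joining littermates. The ranges of both groups overlap for all 10 genes, litters lie far apart, and litter 5 is lowest for Uba7, Herc6, Parp9, Dtx3l and Parp14 and highest for Ube2l6.

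For the question of whether the label ErbB4myeKO went with another level of these genes, log2(TPM + 0.5) was compared within litters. On average 9 of the 10 genes were lower in the libraries labelled ErbB4myeKO, where 50.2% of all genes tested were, and Parp14 was the exception. The median log2 ratio (ErbB4myeKO over ErbB4FF) of the 10 genes was -0.20, that of the 5 ISG15 genes -0.21 and that of the 5 genes of the PARP group -0.20. All genes tested had a median of -0.00 and a 5th to 95th percentile range of -0.46 to 0.47, which held all 10 values. None of the 10 genes passed an adjusted p under 0.05 in limma with litter as a block, and neither did any of the 8780 genes (0%), for which the smallest adjusted p was 0.603. At an unadjusted p under 0.05, 4 of the 10 genes (Isg15, Ube2l6, Parp10 and Parp12) were lower and 0 were higher, where 8.21% of all genes passed in either direction, 4.38% of them lower and 3.83% higher. That count of 4 was 0 without litter 2, 0 without litter 6, 2 without litter 3 or litter 4 and 5 without litter 5, and limma without its trend of variance with level gave 0. Without litter 5, 9 of the 10 genes again had a mean below 0, with a median log2 ratio of -0.21.

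**Figure D2:**
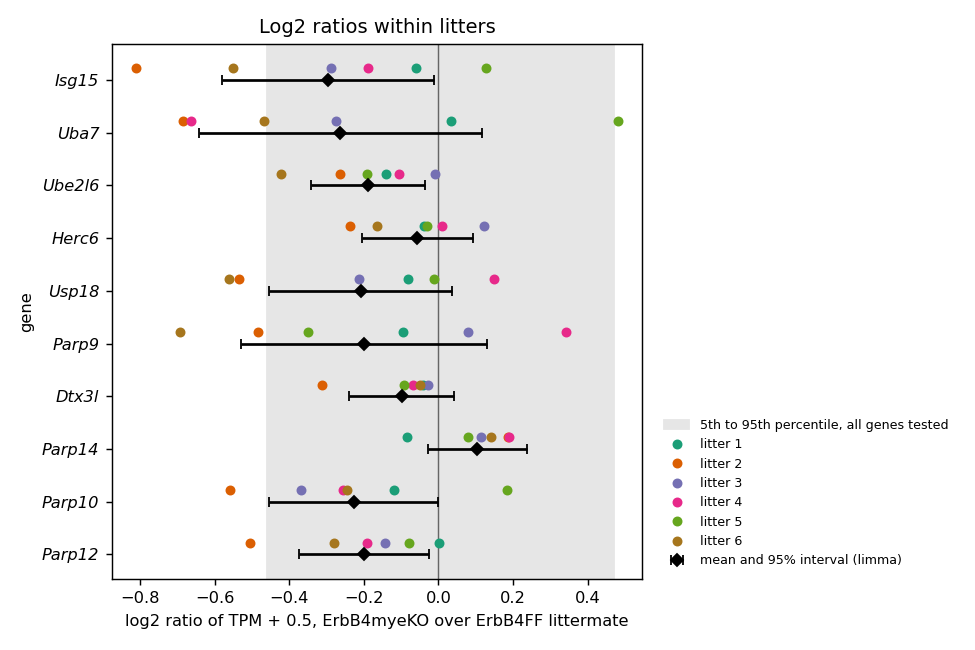
Log2 ratio of TPM + 0.5 within litters for each gene, with 1 colored point per litter, the limma mean (black diamond) and its 95% interval, and a gray band for the 5th to 95th percentile of the mean ratios of all 8780 genes tested. The means of 9 genes lie below 0, from -0.30 for Isg15 to -0.06 for Herc6, and that of Parp14 lies at 0.10, all within the gray band.

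Isg15 (ENSMUSG00000035692, chromosome 4, 156199424 to 156200818, minus strand, GRCm38) encodes the modifier itself. Its level was lowest at 1370 TPM, 2144 at the median and 3224 at the highest in the libraries labelled ErbB4myeKO, and 1673, 2875 and 3046 TPM in those labelled ErbB4FF. The groups overlapped, and the library with the most Isg15 of all 12 was labelled ErbB4myeKO, from litter 5. Within litters the log2 ratio was -0.06, -0.81, -0.29, -0.19, 0.13 and -0.55 in litters 1 to 6, so 5 of 6 pairs were lower. The mean ratio was -0.30 (SE 0.12, 95% interval -0.58 to -0.01), with an adjusted p of 0.603 in limma and an exact permutation p of 0.0938. With litter 2 left out the mean was -0.19. Of the 31-base stretches of its transcript, 12.8% also occur in transcripts of 5 other genes.

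Among the enzymes that attach ISG15, Ube2l6 was lower in every litter and Uba7 had the widest spread of ratios. Ube2l6 (ENSMUSG00000027078, chromosome 2, 84798828 to 84810335, plus strand), the E2, was 180, 195 and 306 TPM (lowest, median and highest) in the libraries labelled ErbB4myeKO and 181, 233 and 350 TPM in those labelled ErbB4FF. It was the lower of the pair in all 6 litters, which 2.31% of all genes were, with log2 ratios between -0.42 and -0.01. The mean was -0.19 (SE 0.07, 95% interval -0.34 to -0.04; limma adjusted p = 0.603), and the exact permutation p was 0.0312, the smallest that 6 litters allow. With the relation of each library's values to transcript length taken away, an alternative chosen after the data were seen, the mean was -0.14. Both Ube2l6 levels of litter 5 stood above the other 10 libraries.

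Uba7 (ENSMUSG00000032596, chromosome 9, 107975505 to 107984060, plus strand), the E1 that activates ISG15, ranged from 5.01 to 30.6 TPM with a median of 15.6 in the libraries labelled ErbB4myeKO. In those labelled ErbB4FF it ranged from 3.45 to 42.5 TPM with a median of 23.4. The log2 ratios ran from -0.69 in litter 2 to 0.48 in litter 5, with 4 of 6 pairs lower, a mean of -0.26 (SE 0.16, limma adjusted p = 0.653) and an exact permutation p of 0.250. Litter 5, in which the gene was lowest in both mice, had the highest ratio, and without it the mean was -0.41. Every 31-base stretch of the listed Uba7 transcript also occurs in other transcripts of the gene (100%), so its level rests on how reads were divided among isoforms.

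Herc6 (ENSMUSG00000029798, chromosome 6, 57581000 to 57664632, plus strand), the main ISG15 ligase of the mouse, was the member with the smallest difference. It was 65.5, 105 and 124 TPM (lowest, median and highest) in the libraries labelled ErbB4myeKO and 66.9, 114 and 128 TPM in those labelled ErbB4FF. The mean log2 ratio was -0.06 (SE 0.06, 95% interval -0.21 to 0.09; limma adjusted p = 0.791), with 4 of 6 pairs lower and an exact permutation p of 0.312. It was -0.02 without litter 2, -0.04 without litter 6 and -0.09 without litter 3. Of the 31-base stretches of its transcript, 25.0% also occur in the overlapping gene model Gm45193, and reads from these stretches cannot be told apart.

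Usp18 (ENSMUSG00000030107, chromosome 6, 121245906 to 121270917, plus strand), the ISG15 protease and brake on the type I interferon receptor, was 333, 476 and 676 TPM in the libraries labelled ErbB4myeKO and 386, 631 and 724 TPM in those labelled ErbB4FF. Its log2 ratios were -0.53 in litter 2 and -0.56 in litter 6, between -0.21 and -0.01 in litters 1, 3 and 5, and 0.15 in litter 4. The mean was -0.21 (SE 0.11, limma adjusted p = 0.612, exact permutation p = 0.156), and -0.14 without litter 6. Usp18 and Isg15 were thus furthest below 0 in the same 2 litters.

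Parp14, Dtx3l and Parp9 are neighbors on chromosome 16, within 139732 bp (35832874 to 35972605), and their ratios did not share a direction in every litter. Parp14 (ENSMUSG00000034422, 35832874 to 35871544, minus strand), a macrodomain ADP-ribosyltransferase that has been linked to the balance of IFN-γ and IL-4 responses in macrophages, was the 1 gene of the 10 with a mean above 0. It was 167, 331 and 381 TPM in the libraries labelled ErbB4myeKO and 158, 300.0 and 352 TPM in those labelled ErbB4FF. The log2 ratio was -0.09 in litter 1 and between 0.08 and 0.19 in the other 5 litters, and 13.9% of all genes were higher in at least 5 litters. The mean was 0.10 (SE 0.06, 95% interval -0.03 to 0.24; limma adjusted p = 0.625), with an exact permutation p of 0.0938. It was 0.05 once the relation of each library's values to transcript length had been taken away, an alternative chosen after the data were seen.

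Dtx3l (ENSMUSG00000049502, 35926511 to 35939151, minus strand), the E3 ubiquitin ligase that partners PARP9, was 53.7, 95.0 and 106 TPM in the libraries labelled ErbB4myeKO and 57.3, 103 and 114 TPM in those labelled ErbB4FF. It was lower in all 6 litters, with log2 ratios between -0.09 and -0.03 in 5 of them and -0.31 in litter 2. The mean was -0.10 (SE 0.06, limma adjusted p = 0.650) and the exact permutation p was 0.0312. Without litter 2 the mean was -0.06.

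Parp9 (ENSMUSG00000022906, 35938470 to 35972605, plus strand), a macrodomain protein of the PARP family, was 3.52, 19.1 and 35.1 TPM in the libraries labelled ErbB4myeKO and 4.62, 23.9 and 28.2 TPM in those labelled ErbB4FF. Its log2 ratios ran from -0.69 in litter 6 to 0.34 in litter 4, with a mean of -0.20 (SE 0.14, limma adjusted p = 0.671, exact permutation p = 0.219). The mean was -0.10 without litter 6 and -0.31 without litter 4. Dtx3l exceeded its partner Parp9 in all 12 libraries, by 3.01 to 15.3 times (median 4.35), and the 2 widest gaps, 15.3 and 12.4 times, were in litter 5. This gap is between the listed transcripts only. Parp9 and Dtx3l lie head to head and their annotated spans overlap by 682 bp. The library kit kept strand, but the strand setting of the counting is not given in the sources used here.

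Parp10 and Parp12, mono-ADP-ribosyltransferases outside that locus, were both lower in most litters. Parp10 (ENSMUSG00000063268, chromosome 15, 76231174 to 76243441, minus strand) was 36.0, 49.3 and 60.0 TPM in the libraries labelled ErbB4myeKO and 43.2, 59.5 and 71.7 TPM in those labelled ErbB4FF. Of its log2 ratios, 5 lay between -0.56 and -0.12 and that of litter 5 was 0.18, with a mean of -0.23 (SE 0.10, limma adjusted p = 0.603, exact permutation p = 0.0938). Its 2 listed transcripts share nearly all of their sequence (99.8% and 96.0% of 31-base stretches occur in other Parp10 transcripts). In litter 3 they divided the level differently, with 9.19 and 26.8 TPM in the library labelled ErbB4myeKO and 46.7 and 0 TPM in that labelled ErbB4FF. The more abundant transcript alone therefore gave a mean ratio of -0.46 where the sum gave -0.23.

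Parp12 (ENSMUSG00000038507, chromosome 6, 39086410 to 39118349, minus strand), a zinc finger PARP known to restrain RNA viruses, was 134, 155 and 187 TPM in the libraries labelled ErbB4myeKO and 148, 176 and 214 TPM in those labelled ErbB4FF. Its log2 ratio was 0.00 in litter 1 and between -0.50 and -0.08 in the other 5 litters. The mean was -0.20 (SE 0.08, 95% interval -0.37 to -0.02; limma adjusted p = 0.603, exact permutation p = 0.0625). Lower values in at least 5 of 6 litters were found for 6 of the 10 genes (Isg15, Ube2l6, Usp18, Dtx3l, Parp10 and Parp12), beside 14.3% of all genes.

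The ratios were unevenly spread over the litters. In litters 2 and 6, 9 of the 10 genes were lower in the library labelled ErbB4myeKO (47.2% and 47.7% of all genes), with median log2 ratios of -0.49 and -0.35. In litters 1, 3, 4 and 5 the numbers were 8, 7, 6 and 6 (49.7%, 51.4%, 53.6% and 46.9% of all genes), with medians between -0.09 and -0.02. Other type I interferon targets were likewise lowest in these 2 litters, with medians of -0.65 in litter 2 and -0.43 in litter 6 and between -0.18 and 0.03 in the others. IFN-γ targets had medians between -0.20 and 0.06. S100a8, a neutrophil marker, was 253 TPM in the library labelled ErbB4myeKO of litter 6 and 97.6 TPM in its littermate, whereas in litter 2 both libraries had 30.3 and 30.2 TPM. In litter 2, S100a9 was 6.97 TPM in the library labelled ErbB4myeKO and 8.90 TPM in its littermate, and Camp was 1.46 and 0.650 TPM. In litter 6 they were 101 and 42.7 TPM and 4.96 and 4.42 TPM. Xcr1, a dendritic cell marker, was 10.1 TPM in the library labelled ErbB4myeKO and 3.75 TPM in its littermate in litter 2, and 22.9 and 14.3 TPM in litter 6. Clec9a, the other dendritic cell marker that averaged 1 TPM or more, went the other way in litter 2, at 3.21e-09 and 3.92 TPM, and was 1.01 and 0.0597 TPM in litter 6. The Lyz2 ratio of litter 6, 1.43, was also opposite to that of litter 2, -0.83. The 7 dendritic cell markers summed to 9.49 to 35.9 TPM in the libraries labelled ErbB4myeKO and 4.52 to 27.7 TPM in those labelled ErbB4FF, with Cd209a and Siglech listed at 0. The part of these cells, or of what sets litter 6 apart in Lyz2, in the ratios was not tested. Across the 6 litters, which are few, the ratio of Isg15 followed the mean ratio of the other 9 genes most closely (r = 0.96), Parp12 (0.88) and Usp18 (0.85) came next, and Parp14 went the other way (-0.54).

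**Figure D3:**
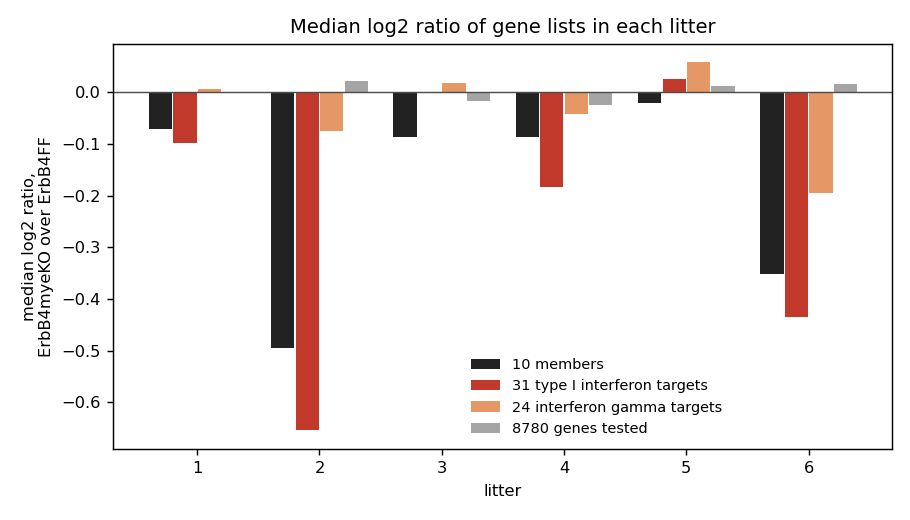
Median log2 ratio (library labelled ErbB4myeKO over its ErbB4FF littermate) in each litter for the 10 genes, 31 other type I interferon targets, 24 IFN-γ targets and all 8780 genes tested, as bars from 0. The black bars for the 10 genes reach -0.49 in litter 2 and -0.35 in litter 6 and stay between -0.09 and -0.02 in the other litters.

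Other genes of both pathways had medians near 0 as lists. The 16 tested partners of the ISG15 pathway had a median log2 ratio of 0.05. They are ligases, proteases that can act on ISG15 and parts of the receptors that ISG15 or USP18 binds. At an unadjusted p under 0.05, 2 of the 16 were lower and 0 higher, where 4.38% of all genes were lower and 3.83% higher. The 2 were Trim25, an E3 ligase that is itself modified by ISG15 (-0.18, SE 0.07, lower in 6 of 6 litters), and Stat2, which brings USP18 to the receptor (-0.19, SE 0.08, lower in 5 of 6). Usp5, a deubiquitinase, was at 0.52 (SE 0.24), higher in 5 of 6 litters. Each of these genes had a limma adjusted p of 0.603, and Usp13 and Skp2 were below 1 TPM on average.

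Among 11 other PARPs tested, 0 were lower and 1 was higher at an unadjusted p under 0.05 (4.38% and 3.83% of all genes), with a median log2 ratio of 0.01. That gene was Parp2, a DNA-damage PARP, at 9.13 ± 1.47 TPM (SD, n = 6) in the libraries labelled ErbB4myeKO and 7.42 ± 1.66 TPM (SD, n = 6) in those labelled ErbB4FF, higher in 6 of 6 litters, as were 2.51% of all genes (log2 ratio 0.29, SE 0.11, limma adjusted p = 0.603). Parp1 and Parp3, which also act at DNA breaks, were at -0.27 (SE 0.20) and -0.25 (SE 0.13). The ratios of Zc3hav1, the antiviral zinc finger PARP, Tiparp, a target of the aryl hydrocarbon receptor, and the tankyrases Tnks and Tnks2 were 0.03, 0.01, 0.09 and 0.00. Parp4, Parp6, Parp8 and Parp11 lay between -0.11 and 0.14. Zc3hav1, Parp8 and Tiparp had means of 60.2, 63.4 and 54.6 TPM in the libraries labelled ErbB4FF, and the other 8 were at 27.5 TPM or less.

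Of 6 tested genes that remove or cleave ADP-ribose, 3 were lower and 3 higher, with a median log2 ratio of 0.03. At an unadjusted p under 0.05, 1 was lower, as were 4.38% of all genes. That was Nudt16, a hydrolase of low level here (2.30 ± 1.37 and 3.36 ± 1.55 TPM, SD, n = 6 per group), at -0.51 (SE 0.15, limma adjusted p = 0.603) and lower in 6 of 6 litters. Adprh, which takes ADP-ribose off arginine, was at -0.21 (SE 0.10) and Parg, which cuts chains of ADP-ribose, at 0.21 (SE 0.17). Of the other Deltex ligases, Dtx4 (0.15, SE 0.12) and Dtx3 (0.08, SE 0.57) were tested, while Dtx2 was below 1 TPM on average and Dtx1 was listed at 0.

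Of the lists described, other type I interferon targets had the lowest median. Of 31 tested, 30 had a mean log2 ratio below 0, with a median of -0.24, and 8 were lower and 0 higher at an unadjusted p under 0.05, although 0 passed the adjusted threshold. Of all genes tested, 50.2% were below 0 and 4.38% were lower at that unadjusted p. Those with the smallest p were Epsti1 (-0.70, SE 0.20, lower in 6 of 6 litters), the 2',5'-oligoadenylate synthetase Oas1a (-0.26, SE 0.09) and Rtp4 (-0.28, SE 0.11), each with a limma adjusted p of 0.603. Of 24 IFN-γ targets, 14 were below 0 and 10 above, with a median of -0.05, and 2 were lower at an unadjusted p under 0.05. These were the immunoproteasome subunits Psmb8 (-0.22, SE 0.07) and Psmb9 (-0.20, SE 0.08), while Ciita, the master regulator of MHC class II, was at 0.29 (SE 0.13). Among 8 interferon and receptor genes, Ifngr2 was at -0.20 (SE 0.06), lower in 6 of 6 litters, and Ifnar1 at -0.18 (SE 0.11). The kinase gene Tyk2 was at 1.03 (SE 0.40) and higher in 5 of 6 litters, with a spread as wide as its level (6.83 ± 10.2 and 4.16 ± 7.98 TPM, SD, n = 6 per group). These also had limma adjusted p-values of 0.603 to 0.644. The lists share a few genes, such as Stat2, and whether they differ from each other was not tested.

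Litter made up most of the variation of these genes. The share of the variation of log2(TPM + 0.5) over the 12 libraries that lay between litters was 57.0% for Parp12 and 97.2% for Parp14 at the extremes, with a median of 89.5% for the 10 genes and 78.1% for all genes tested. The share between the labelled genotypes had a median of 5.58% for the 10 genes and 2.49% for all genes, and was largest for Parp12 (25.9%), Parp10 (17.0%) and Isg15 (14.2%). In TPM, the highest of the 12 libraries exceeded the lowest by 12.3 times for Uba7 and 9.96 times for Parp9, but by 1.60 times for Parp12.

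**Figure D4:**
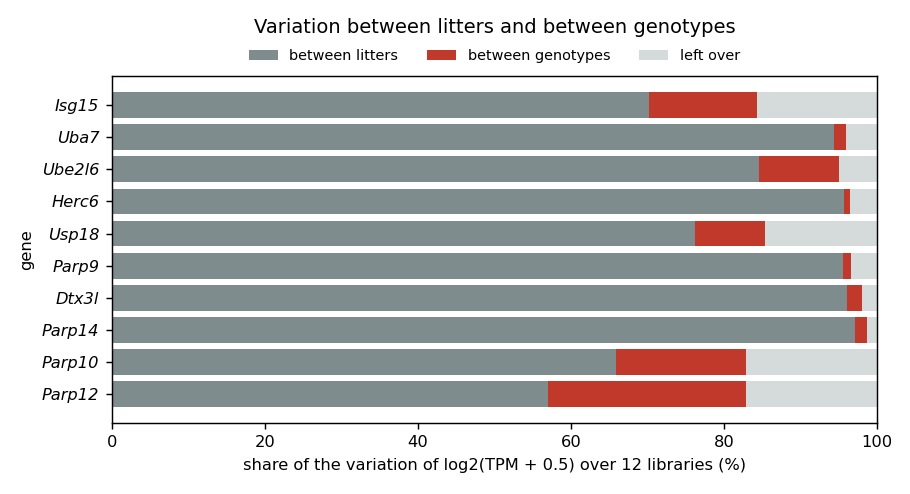
Share (%) of the variation of log2(TPM + 0.5) over the 12 libraries that lies between litters, between the labelled genotypes, or is left over, as stacked bars that sum to 100 for each of the 10 genes. The part between litters is above 94% for Uba7, Herc6, Parp9, Dtx3l and Parp14, and the part between genotypes is widest for Parp12 at 25.9%.

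Both libraries of litter 5 stood apart, and their distance from the other libraries went with transcript length. Isg15, with a transcript of 756 nt, and Ube2l6, with 1560 nt, were higher in the 2 libraries of litter 5 than in the other 10 on average, by 0.50 and 0.67 on the log2 scale. Usp18, with 1771 nt, went the other way at -0.26, the 14.3 percentile of genes of like length. The longer transcripts of Herc6 (4767 nt), Dtx3l (5309 nt) and Parp14 (7417 nt) were lower, at -0.74, -0.80 and -0.93. All genes tested showed a like order, with medians of 0.88 for 787 genes under 1000 nt, 0.48 for those from 1000 to 2000 nt, 0.00 for those from 2000 to 4000 nt and -0.55 for 2329 genes from 4000 nt up. Across genes, which are not independent replicates, the correlation of a library's deviation with log2 transcript length was -0.46 and -0.44 in litter 5, -0.20 and -0.24 in litter 6 and between 0.13 and 0.29 in the others.

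Uba7 (3195 nt) and Parp9 (3548 nt) stood apart from this relation. Their log2 difference between litter 5 and the other litters was -2.09 and -2.34, at the 3.10 and 2.28 percentile of genes of like length, while Parp10 (3284 nt) and Parp12 (3231 nt) differed by -0.22 and -0.05. Uba7 was 5.01 and 3.45 TPM in litter 5 against 7.25 to 42.5 TPM elsewhere, and Parp9 was 3.52 and 4.62 TPM against 12.4 to 35.1 TPM. Both had the low values in both genotypes. They were also the 2 genes of the 10 with the fewest reads, as the authors' pooled mean of normalized counts corresponded to 289 for Uba7 and 364 for Parp9, against 12901 for Parp14 and 8316 for Isg15. Of the 31-base stretches of the listed Parp9 transcript, 83.9% also occur in other Parp9 transcripts, beside 6.78% for Parp12 and 0% for Isg15. Parp10, which was not low in litter 5, had shares of 99.8% and 96.0% in its transcripts. S100a8 was 81.0 and 72.1 TPM in litter 5, 24.8 to 42.5 TPM in litters 1 to 4 and 253 and 97.6 TPM in litter 6. S100a9 was 103 and 89.0 TPM in litter 5 and 101 and 42.7 TPM in litter 6. Camp was 10.5 and 5.87 TPM in litter 5 and 4.96 and 4.42 TPM in litter 6. In litter 6, Uba7 was at 30.6 and 42.5 TPM and Parp9 at 12.4 and 20.3 TPM. The part of neutrophils, of reads shared with other isoforms and of depth in these low values was not tested. Within litters, the genotype ratio of a gene had at most a weak linear relation to length (r between -0.02 and 0.08 across genes). Littermates could still differ. Under 1000 nt, the median deviation in litter 6 was 0.12 in the library labelled ErbB4myeKO and 0.24 in its littermate, and from 4000 nt up 0.02 and -0.11. Under 1000 nt it was -0.39 and -0.21 in litter 3. Litters 1 and 2 went the other way, at -0.10 and -0.11 and at -0.27 and -0.32.

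**Figure D5:**
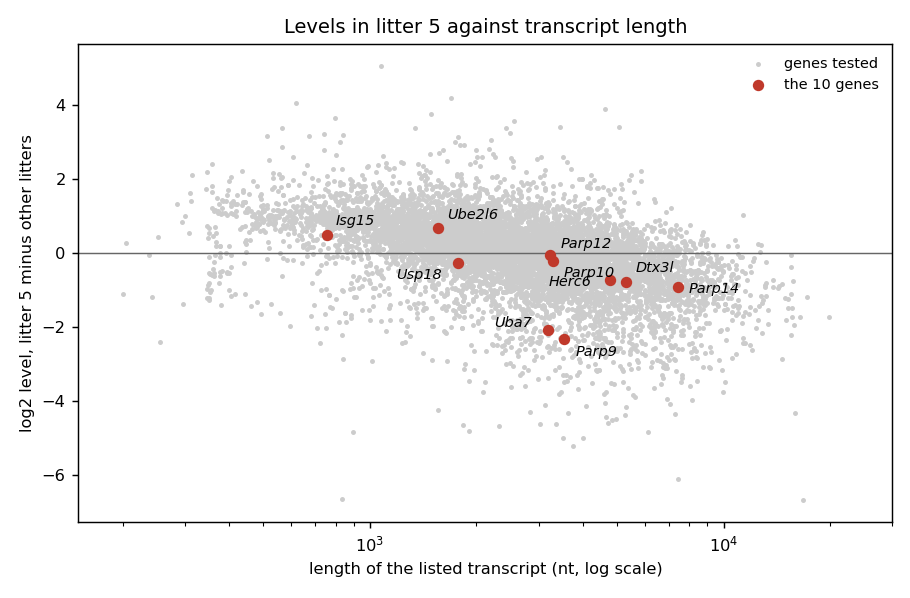
Log2 level in the 2 libraries of litter 5 minus the mean of the other 10 libraries, against the length of the listed transcript (nt, log axis), for all 8780 genes tested (gray) and the 10 genes (red, named). The gray points tend downward with length, whereas the 10 genes follow no strict order: Isg15 and Ube2l6 lie at 0.50 and 0.67, Usp18 at -0.26, Parp14 at -0.93, and Uba7 and Parp9 lowest at -2.09 and -2.34.

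The genes whose levels over the 12 libraries were most like the mean of the 10 genes, among those averaging 10 TPM or more, were Ifi208 (r = 0.973), a p200 family member, Ifih1 (0.970), the RNA sensor MDA5, Ms4a4c (0.949), the complement gene C4b (0.936) and Fam49a (0.936). These correlations rest on libraries that share litters. Over the 6 litter ratios, Ifih1 (r = 0.995) was highest, and others among the highest were Gps2 (0.985), Prpf38a (0.982) and Tor3a (0.979). Ifih1 was in both lists, and its mean log2 ratio was -0.17 (SE 0.09, lower in 5 of 6 litters, limma adjusted p = 0.624). Ifi208 was at -0.57 (SE 0.19) and Ms4a4c at -0.31 (SE 0.12), both lower in 6 of 6 litters with a limma adjusted p of 0.603. Gps2 was at 0.07 (SE 0.12) and lower in 2 of 6 litters. Prpf38a was at -0.19 (SE 0.08), lower in 5 of 6, and Tor3a at -0.20 (SE 0.12), lower in 4 of 6. With 6 points, a correlation this high is a description only.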

How the data were processed

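Poly(A) RNA of 12 cultures was made into stranded libraries and sequenced as single-end reads. The authors ran kallisto and deposited TPM of the principal transcripts of APPRIS, which held between 59.0% and 74.7% of the TPM of a library. The labels name mm10, and the transcriptome release and the version of kallisto are not given in the sources used here. The authors also deposited a mean, pooled over libraries, of the natural log of normalized counts from sleuth, from which its antilog is printed here. Further deposited columns hold the authors' own comparison (p, q, test statistics and ratios) and were not used.

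Of 29213 lines, 405 repeat a transcript and were dropped, which left 28808 transcripts. TPM were summed per gene, and genes averaging 1 TPM or more were tested with limma 3.58.1 (lmFit, eBayes with trend) in R 4.3.3 on log2(TPM + 0.5), with litter as a block, genotype as the effect and Benjamini-Hochberg adjustment over all 8780 genes. Log2 ratios therefore understate differences of low genes. Single genes were tested by a two-sided exact permutation of the mean ratio over the 64 swaps of genotype within litters (smallest p 0.0312). The study also adjusted for sex, which is not on the labels. Read depth cannot be had from TPM, so precision rests on how far the ratios within litters differ from litter to litter. The number of genes above 0 TPM was 10214 to 12985 per library.

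Littermates carry the same number on the labels, and their values deviated together in every litter (r from 0.273 to 0.774). In litter 2, where r was lowest, the library labelled ErbB4FF was closer to that labelled ErbB4myeKO of litter 4 (r = 0.379). Each mouse gave 1 library, and littermates were compared as pairs. The p-values therefore measure how far the ratios within litters differ from litter to litter, not the spread of levels between litters. Differences between mice and between cultures cannot be told apart in these ratios. Positions, lengths and shared 31-base stretches come from GENCODE M21 (GRCm38), which held all 28808 transcripts. Promoters come from RefSeq.

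The genes and lists were chosen with earlier results of these data known. Beside the 10 genes, the text names the Cre host gene and the targeted gene, up to 3 genes with the smallest p of each list (all tested genes of the list of other PARPs), and 5 genes most like the mean of the 10 over libraries and over litter ratios, of which 1 result is not reported here. Chosen after their values were seen were S100a8, S100a9, Camp, Xcr1, Clec9a, Cd209a, Siglech, Ly6g, Mpo and Elane. Alternatives were no block, pseudocounts of 0.1 and 1, genes of any level, genes averaging 5 TPM or more, median-ratio rescaling, limma fitted without trend, the most abundant transcript alone, each litter left out and, added after seeing the data, removal of the trend with transcript length. Python 3.11.15 with numpy 2.4.6, pandas 2.3.3 and matplotlib 3.10.9 was used for the other steps.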

Additional observations from a re-analysis of the deposited data

Results flagged for a closer look

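Of 30 groups of 6 values checked (the levels of the 10 genes in each labelled genotype and their ratios within litters), 3 had a value whose gap to its neighbor was more than 0.625 of the range, where chance gives about 1.5. Ube2l6 in the library labelled ErbB4myeKO of litter 5, at 306 TPM, stood above the other 5 of its group (0.706 of the range of log2 levels), and its littermate was also the highest of its group. Parp9 in the library labelled ErbB4FF of litter 5, at 4.62 TPM, stood below the other 5 (0.722 of the range), and its littermate was likewise the lowest. The Dtx3l log2 ratio of litter 2, at -0.31, was apart from the other 5 (0.773 of the range), which lay between -0.09 and -0.03.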

How the results depend on the processing

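Under 15 alternatives, the 150 log2 ratios of the 10 genes kept their sign and 0 passed the adjusted threshold (smallest adjusted p 0.499). Their median lay between -0.14 and -0.23. Many of these signs could not change. No block, genes of any level, genes averaging 5 TPM or more and limma without trend leave the ratios themselves unaltered and change only p-values. The most abundant transcript alone could change Parp10 only. The block mattered for unadjusted counts: without pairing littermates (no replicate block), 0 of these 10 passed an unadjusted p under 0.05 in place of 4, and 75 of all genes in place of 721. Limma without trend gave 0 of the 10 genes, and 2 passed once the trend with transcript length was removed, which was chosen after seeing the data. With each litter left out in turn, 0 to 5 of the 10 genes and 413 to 864 of all genes passed the unadjusted threshold, and 0 to 1 of all genes passed the adjusted threshold (1 without litter 3). The cause of these shifts was not tested. TPM carry no depth, and sex was not in the model.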
